A study of Homo sapiens with 12 samples.

Results

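The Toll-like receptors measured in these myeloma cells (TLR1, TLR2, TLR4, TLR6, TLR7, TLR9 and TLR10) are described here with their co-receptors LY96 and CD14 and their adaptor MYD88. They were taken by gene symbol, which gave 10 of 19775 genes and 16 of the 41091 probe sets that name a single gene. The set was chosen by the centred array values of LY96, which were higher in both carfilzomib-resistant lines, so the changes of LY96 on resistance are given as values without a test. TLR4 is among the genes whose mRNA the study also measured by qRT-PCR in these cultures. The study selected such genes from those that differed in a resistant derivative, so the direction of TLR4 here is not independent evidence.

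RNA was taken from KMS-11 and KMS-34, which are human multiple myeloma cell lines, and from KMS-11/Cfz and KMS-34/Cfz, a derivative of each that is resistant to 12 nM carfilzomib. Carfilzomib inhibits the proteasome, which degrades proteins tagged with ubiquitin. The resistant cells had grown for 1 week without carfilzomib, the parental cells had never been selected in it, and the labels give 4% fetal bovine serum for all 4 groups, whereas the study's methods name a higher concentration for its cell culture. Each derivative is 1 selected culture of its line, and the 3 arrays of a group carry replicate numbers but nothing says that they came from separate cultures, so each p-value covers only the variation among the 12 arrays. All groups are bulk cultures, in which more RNA per cell and more cells that carry the RNA cannot be told apart.

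Toll-like receptors recognise microbial molecules and molecules released from damaged cells. TLR4 senses bacterial lipopolysaccharide only together with LY96, also called MD-2, the secreted protein that forms its ligand pocket, while CD14 hands lipopolysaccharide to that complex. TLR2 pairs with TLR1 or TLR6 to sense lipopeptides, TLR7 and TLR9 sense nucleic acids in endosomes, TLR10 is a relative of TLR1 and TLR6, and MYD88 links most of these receptors to the kinases that activate NF-κB. B-lineage cells carry several of these receptors, and myeloma lines differ in which ones they transcribe.

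The values are RMA signals on the log2 scale that had been centred for each probe set, so a value compares arrays within 1 gene and says nothing about how abundant 1 gene is beside another. The words rose and fell are kept for genes with an adjusted p of limma under 0.05 over all 19775 genes, and each change is a log2 fold change with its standard error (SE). One array stood apart. The first replicate of KMS-34/Cfz had a mean Pearson r of 0.785 with its own group over all probe sets, against 0.842 to 0.945 for the other 11 arrays, and values without it are given where a result rests on it.

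LY96 (probe set 206584_at, chr8:73991392-74099857 in GRCh38.p14) was higher in the resistant derivative of both lines. In KMS-11 its centred log2 values were 0.19, 0.06 and 0.03, and in KMS-11/Cfz they were 0.63, 0.63 and 0.68. In KMS-34 they were -0.20, -0.03 and -0.28, and in KMS-34/Cfz 0.73, 0.80 and 0.86. Neither pair of groups overlapped, and the lowest resistant array of all 6 lay at 0.63 against 0.19 for the highest parental array. The difference was 0.56 in KMS-11 (SE 0.07, 1.47-fold) and 0.97 in KMS-34 (SE 0.07, 1.95-fold). Among all genes, 13.1% had all KMS-11/Cfz arrays above all KMS-11 arrays and 10.2% had all KMS-34/Cfz arrays above all KMS-34 arrays, from which nothing is read here since LY96 was chosen for this pattern. Over every alternative tried, including the omission of each array, the difference stayed between 0.53 and 0.61 in KMS-11 and between 0.91 and 1.04 in KMS-34.

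The order of the group means of LY96 was KMS-34 at -0.17 ± 0.13 (SD, n = 3), KMS-11 at 0.09 ± 0.09, KMS-11/Cfz at 0.65 ± 0.03 and KMS-34/Cfz at 0.80 ± 0.07. The parental arrays also entered the choice of LY96, so the difference between the parental lines is given without a test too. It was -0.26 for KMS-34 over KMS-11 (SE 0.07), and all 3 KMS-34 arrays lay below all 3 KMS-11 arrays, as they did for 24.0% of all genes. Over the alternatives it lay between -0.33 and -0.21.

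**Figure D1:**
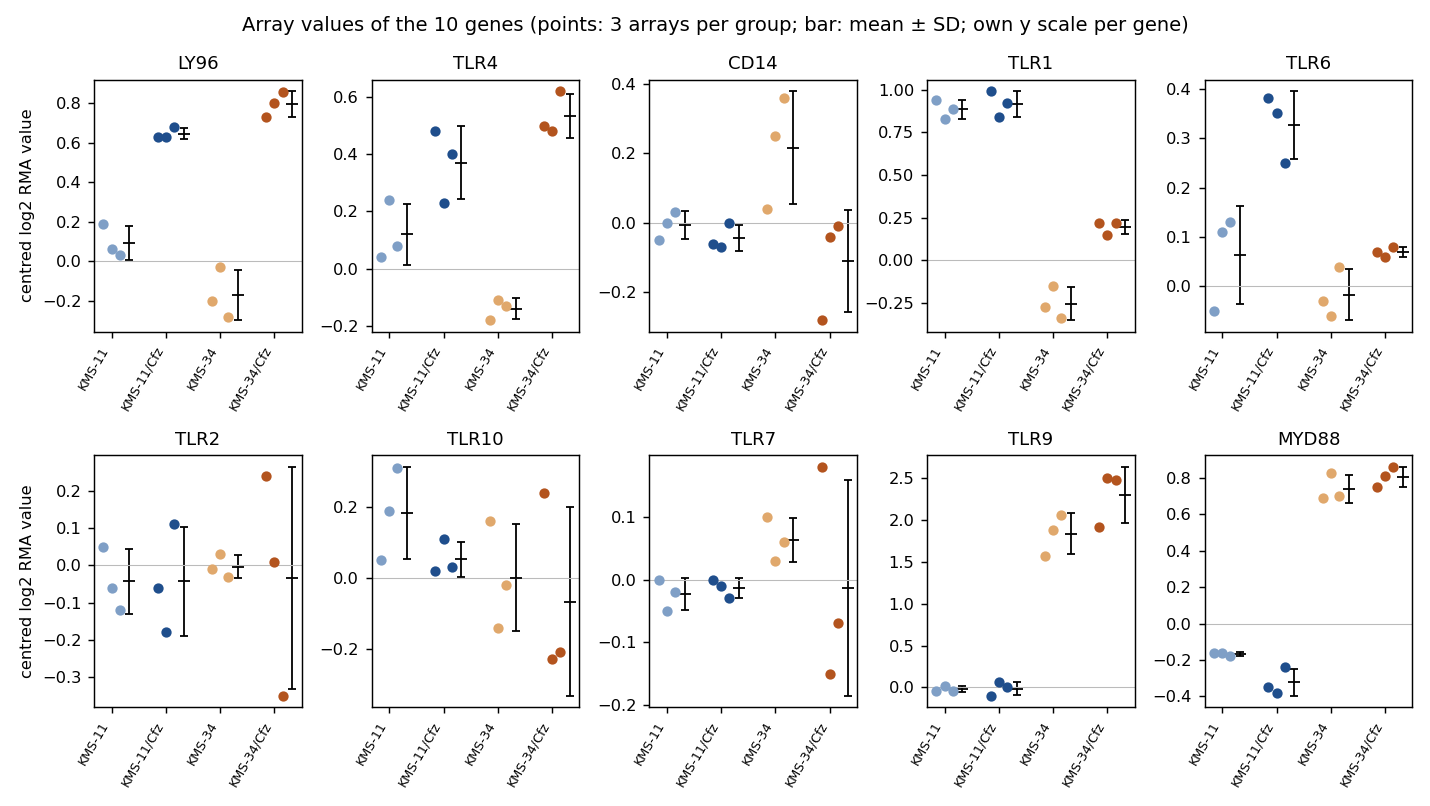
Centred log2 RMA values of the 10 genes in every array, with 3 points per group and a bar for the mean ± SD. Each panel has its own y scale. The LY96 panel shows all 6 resistant arrays at 0.63 or above, and the TLR9 and MYD88 panels separate the KMS-34 cultures from the KMS-11 cultures.

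TLR4 (chr9:117704403-117724735), the receptor that LY96 completes, rose in KMS-34/Cfz. Its values, averaged over 4 probe sets, were -0.18, -0.11 and -0.13 in KMS-34 and 0.50, 0.48 and 0.62 in KMS-34/Cfz, with no overlap (10.2% of all genes lay wholly higher in KMS-34/Cfz). The change was 0.68 (SE 0.08, 1.60-fold, adjusted p = 9.7e-05), and it stayed called under all 22 alternatives, at 0.69 without the array that stood apart. In KMS-11 the values were 0.04, 0.24 and 0.08, and in KMS-11/Cfz 0.48, 0.23 and 0.40, so that 1 resistant array lay just under the highest parental array. That change was 0.25 (SE 0.08, 95% interval 0.08 to 0.41), with an adjusted p = 0.11, and it passed the threshold only when arrays were weighted by their quality (adjusted p = 0.029).

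The TLR4 change was larger in KMS-34 than in KMS-11 by 0.43 (SE 0.11, adjusted p = 0.033), and TLR4 was lower in KMS-34 than in KMS-11 before selection, at -0.26 (SE 0.08, adjusted p = 0.013). The difference between the lines' changes lost its call without replicates 2 or 3 of KMS-11, 2 or 3 of KMS-11/Cfz, 1 or 3 of KMS-34, or 2 or 3 of KMS-34/Cfz (adjusted p = 0.052 to 0.09). It was also lost with the probe set of largest variance (adjusted p = 0.2) and without s_at or x_at probe sets (adjusted p = 0.14). The parental difference was lost without the second KMS-11 replicate (adjusted p = 0.072) and without s_at or x_at probe sets (adjusted p = 0.059). With p-values adjusted over all probe sets, none of the TLR4 probe sets alone called the difference between the lines' changes (adjusted p = 0.18 to 0.43). Only 221060_s_at called the parental difference (adjusted p = 0.038). Both comparisons use the parental arrays of KMS-34 and KMS-11, as do the changes on resistance, so they are not separate observations.

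All 4 TLR4 probe sets gave the same direction. In KMS-34/Cfz their log2 fold changes, with p-values adjusted over all probe sets, were 0.75 for 1552798_a_at (adjusted p = 0.0026), 0.89 for 221060_s_at (adjusted p = 0.0026), 0.63 for 224341_x_at (adjusted p = 0.012) and 0.44 for 232068_s_at (adjusted p = 0.023). In each of them the 3 KMS-34/Cfz arrays lay above the 3 KMS-34 arrays. In KMS-11/Cfz the same probe sets gave 0.25, 0.36, 0.28 and 0.11, and 0 of the 4 passed the threshold (adjusted p = 0.40 to 0.84). Only 1552798_a_at kept the KMS-11/Cfz arrays, at 0.25, 0.39 and 0.35, above those of KMS-11, at 0.01, 0.19 and 0.04.

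**Figure D2:**
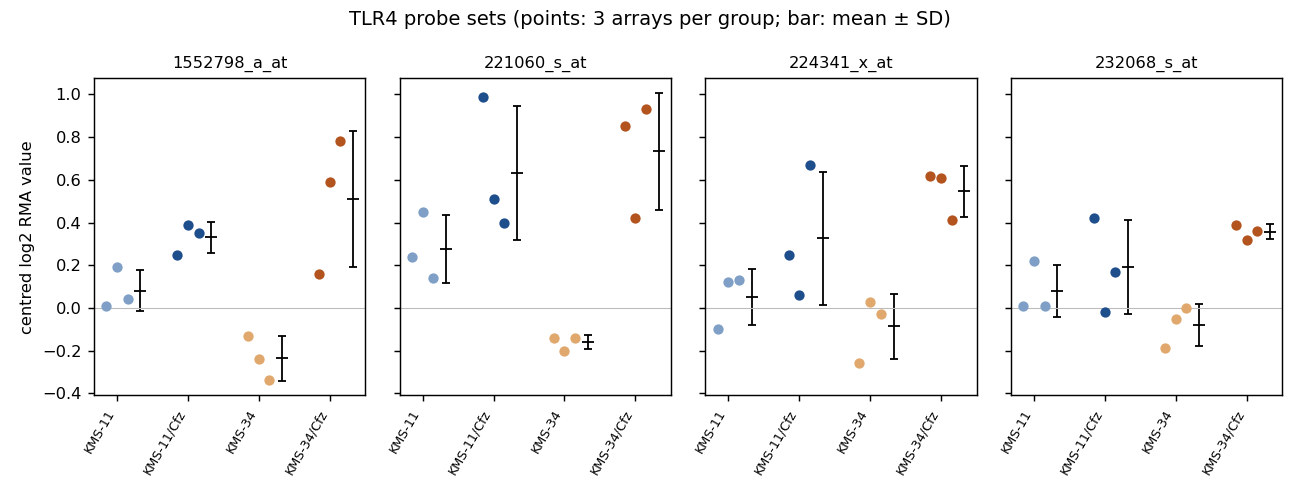
Centred log2 RMA values of the 4 TLR4 probe sets, with 3 arrays per group and a bar for the mean ± SD on a shared y axis. The KMS-34/Cfz arrays lie above those of KMS-34 in each panel, whereas KMS-11/Cfz overlaps KMS-11 in all panels but 1552798_a_at.

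CD14 (201743_at, chr5:140631732-140633701), the co-receptor that loads lipopolysaccharide onto the TLR4 complex, fell in KMS-34/Cfz while LY96 and TLR4 were higher there. Its values were 0.04, 0.25 and 0.36 in KMS-34 and -0.28, -0.04 and -0.01 in KMS-34/Cfz. The groups did not overlap (10.5% of all genes lay wholly lower in KMS-34/Cfz), and the lowest value belonged to the array that stood apart. The change was -0.32 (SE 0.09, 0.80-fold, adjusted p = 0.031). The call ended without that array (-0.24, adjusted p = 0.074), without the second KMS-34/Cfz replicate (adjusted p = 0.051), without KMS-34 replicates 2 or 3 (adjusted p = 0.086 and 0.13), with the KMS-34 cultures fitted alone (adjusted p = 0.16) and after quantile normalization (adjusted p = 0.051). In KMS-11 and KMS-11/Cfz, CD14 lay between -0.07 and 0.03 in all 6 arrays, and its change was -0.04 (95% interval -0.23 to 0.15, adjusted p = 0.94). A difference between the lines' CD14 changes was not called, at -0.29 (95% interval -0.55 to -0.02, adjusted p = 0.23). Nor was the difference between the parental lines, at 0.22 (95% interval 0.03 to 0.41, adjusted p = 0.057), although it was called without KMS-34 replicate 1 (0.31, adjusted p = 0.0093) and without the array that stood apart (adjusted p = 0.025).

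TLR1 (210176_at), a partner of TLR2 on the cell surface, rose in KMS-34/Cfz. It stood at -0.27, -0.15 and -0.34 in KMS-34 and at 0.22, 0.15 and 0.22 in KMS-34/Cfz, with no overlap (10.2% of all genes lay wholly higher in KMS-34/Cfz). The change was 0.45 (SE 0.07, 1.36-fold, adjusted p = 0.00083), and it was 0.44 without the array that stood apart. In KMS-11 TLR1 stood at 0.94, 0.83 and 0.89, and in KMS-11/Cfz at 0.99, 0.84 and 0.92. These groups overlapped, with a change of 0.03 (95% interval -0.11 to 0.18, adjusted p = 0.93).

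The change of TLR1 was larger in KMS-34 than in KMS-11 by 0.41 (SE 0.09, adjusted p = 0.02), a call that ended without KMS-11 replicate 1 (adjusted p = 0.059), KMS-11/Cfz replicate 2 (adjusted p = 0.062) or KMS-11/Cfz replicate 3 (adjusted p = 0.052). Parental KMS-34 cells had 0.454 times the TLR1 signal of KMS-11 cells (-1.14, SE 0.07, adjusted p = 6.1e-09). All 3 KMS-34/Cfz arrays still lay below all KMS-11 and KMS-11/Cfz arrays, of which the lowest was 0.83.

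TLR6, the alternative partner of TLR2, rose in KMS-11/Cfz. Its values, averaged over 2 probe sets, were -0.05, 0.11 and 0.13 in KMS-11 and 0.38, 0.35 and 0.25 in KMS-11/Cfz, with no overlap (13.1% of all genes lay wholly higher in KMS-11/Cfz). The change was 0.26 (SE 0.06, 1.20-fold, adjusted p = 0.042). In KMS-34 TLR6 stood at -0.03, -0.06 and 0.04, and in KMS-34/Cfz at 0.07, 0.06 and 0.08. These arrays did not overlap either (10.2% of all genes lay wholly higher in KMS-34/Cfz), but the change of 0.09 was not called (95% interval -0.05 to 0.23, adjusted p = 0.53). The lines' changes were not shown to differ (-0.18, 95% interval -0.37 to 0.02, adjusted p = 0.33).

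The TLR6 call in KMS-11/Cfz lay close to the threshold. It ended on omission of any KMS-11 or KMS-11/Cfz array, of KMS-34 replicate 1 or of KMS-34/Cfz replicate 2 (adjusted p = 0.055 to 0.19), with aligned array medians (adjusted p = 0.053) and with the more variable probe set alone (adjusted p = 0.079). Neither probe set was called alone, at 0.17 for 207446_at (adjusted p = 0.55) and 0.36 for 239021_at (adjusted p = 0.10).

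TLR2, TLR10 and TLR7 passed the threshold in 0 of the comparisons. TLR2 (204924_at), the shared partner of TLR1 and TLR6, changed by 0.00 in KMS-11/Cfz (95% interval -0.26 to 0.26) and by -0.03 in KMS-34/Cfz (95% interval -0.29 to 0.23). Its 3 KMS-34/Cfz arrays were spread from -0.35 to 0.24, wider than the range from -0.18 to 0.11 over the other 9. TLR10 changed by -0.13 (95% interval -0.38 to 0.13) and -0.06 (95% interval -0.32 to 0.19), and its 2 probe sets pointed in opposite directions in each line. For TLR7, the endosomal receptor of single-stranded RNA, the changes were 0.01 (95% interval -0.15 to 0.17) and -0.08 (95% interval -0.24 to 0.09). The KMS-34/Cfz array that stood apart held the highest of the 3 values of its group for TLR2, TLR7 and TLR10, and without it their changes were -0.17, -0.17 and -0.22 (adjusted p = 0.31, 0.063 and 0.14).

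TLR9 (223903_at), the endosomal receptor of unmethylated CpG DNA, was higher in the KMS-34 cultures than in the KMS-11 cultures. Its values were -0.04, 0.02 and -0.04 in KMS-11 and -0.10, 0.06 and 0.00 in KMS-11/Cfz. In KMS-34 they were 1.57, 1.88 and 2.06, and in KMS-34/Cfz 1.91, 2.50 and 2.48. The parental lines differed by 1.86 (SE 0.14, 3.62-fold, adjusted p = 1e-07), and every array of the KMS-34 cultures lay above every array of the KMS-11 cultures. Parental KMS-34 arrays lay wholly above those of KMS-11 for 26.1% of all genes.

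Within KMS-34 the change of TLR9 on resistance was 0.46 (SE 0.14, 95% interval 0.15 to 0.77, adjusted p = 0.06), which was not called, and the groups overlapped only through the array that stood apart. Without that array it was 0.65 and called (adjusted p = 0.002), as was its difference from the KMS-11 change (0.65, adjusted p = 0.016). It was also called without KMS-34 replicate 3 (0.57, adjusted p = 0.042). In KMS-11/Cfz the change was 0.01 (95% interval -0.30 to 0.32), and with all arrays weighted alike the lines' changes were not shown to differ (0.46, adjusted p = 0.25).

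MYD88 (209124_at, chr3:38138661-38143022), the adaptor shared by these receptors, also differed mainly between the lines. It stood at -0.16, -0.16 and -0.18 in KMS-11 and at 0.69, 0.83 and 0.70 in KMS-34, a difference of 0.91 (SE 0.06, 1.88-fold, adjusted p = 3.3e-08). On resistance it was -0.35, -0.38 and -0.24 in KMS-11/Cfz, all below the KMS-11 arrays (13.7% of all genes did the same), and 0.75, 0.81 and 0.86 in KMS-34/Cfz, which overlapped KMS-34. Neither change passed the threshold, at -0.15 (95% interval -0.29 to -0.02, adjusted p = 0.28) and 0.06 (95% interval -0.07 to 0.20, adjusted p = 0.67).

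Counted over the 9 genes other than LY96, 1 rose and 0 fell in KMS-11/Cfz, where 1.63% of all genes rose and 1.94% fell (3.57% in either direction). In KMS-34/Cfz 2 rose and 1 fell, where 5.4% of all genes rose and 4.69% fell (10.1% in either direction). The median log2 fold change of the 9 genes was 0.01 for KMS-11/Cfz against 0.06 for KMS-34/Cfz, beside 0.00 and -0.01 over all genes tested. The 2 genes whose change differed between the lines, TLR1 and TLR4, both had the larger value in KMS-34, beside 3.7% of all genes in that direction and 2.74% in the other (6.44% in all). Between the parental lines 4 of the 9 genes were called, with TLR9 and MYD88 higher and TLR1 and TLR4 lower in KMS-34, beside 21.6% of all genes higher and 20.5% lower (42.1% in either direction). A share so close to that of all genes is not a result about these receptors.

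**Figure D3:**
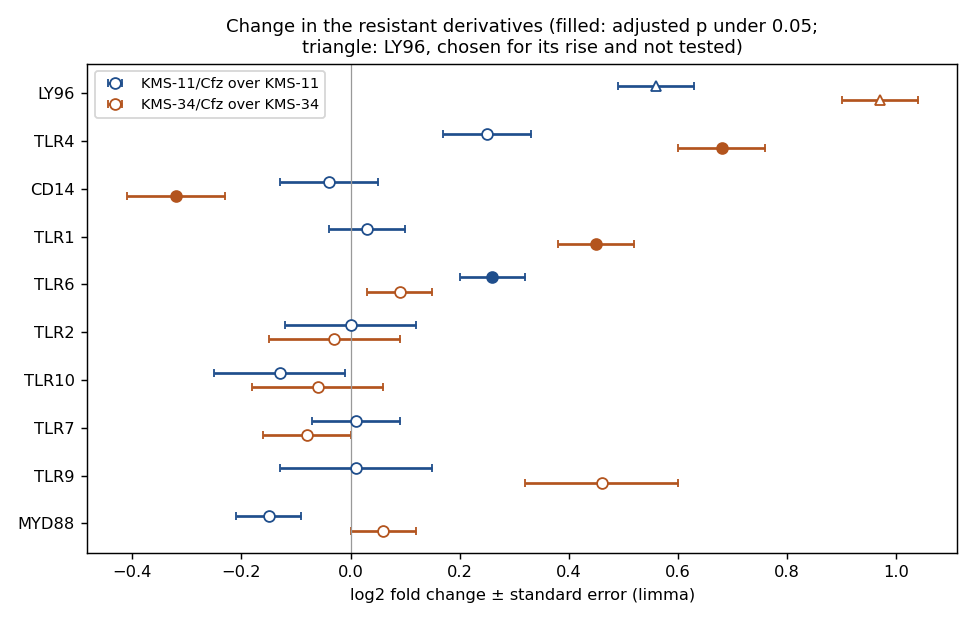
Log2 fold change ± SE of each of the 10 genes in each derivative over its parental line, with filled symbols for genes that passed the threshold and triangles for LY96, which was not tested. TLR6 is filled in KMS-11/Cfz, and TLR4, TLR1 and CD14 are filled in KMS-34/Cfz, with CD14 on the negative side.

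The genes whose arrays varied most like LY96 were ranked by Pearson's r over the 12 arrays, which share 4 groups and 2 lines and were the ones used to choose LY96. SDCBP, a scaffold protein of membrane traffic, came first at r = 0.978. It was followed by CXCR4, a chemokine receptor, at 0.972, METTL27 at 0.967, SNX10, a sorting nexin of endosomes, at 0.960 and MAP1LC3B, a protein of autophagosome membranes, at 0.950. TLR4 ranked ninth of all genes at 0.934, whereas CD14 stood at -0.688 and MYD88 at -0.073. For TLR4 the leading genes were CXCR4 (0.963), PON2 (0.940), MAPRE1 (0.937), LY96 (0.934) and SH3KBP1 (0.924).

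The promoters of TLR4, TLR6 and TLR9 are shown because each of these genes differed in another comparison: TLR4 rose in KMS-34/Cfz, TLR6 rose in KMS-11/Cfz, and TLR9 separated the lines. The windows are the 250 bases before the start that RefSeq's promoter table for GRCh38.p14 gives, read 5′ to 3′ on the strand of the gene, at chr9:117704153-117704402 (plus strand) for TLR4, chr4:38856818-38857067 (minus strand) for TLR6 and chr3:52225646-52225895 (minus strand) for TLR9. For TLR4 and TLR9 that start is the 5′ end of the locus on the strand of the gene, whereas for TLR6 and CD14 it lies inside the locus. Capitals mark matches on either strand to GGGTG, part of the motif of KLF factors, and to GAGGAA, a core read by ETS factors such as PU.1. Of the 10 genes, 6 had an entry in the promoter table (TLR2, TLR4, TLR6, TLR9, CD14 and MYD88).
TLR4: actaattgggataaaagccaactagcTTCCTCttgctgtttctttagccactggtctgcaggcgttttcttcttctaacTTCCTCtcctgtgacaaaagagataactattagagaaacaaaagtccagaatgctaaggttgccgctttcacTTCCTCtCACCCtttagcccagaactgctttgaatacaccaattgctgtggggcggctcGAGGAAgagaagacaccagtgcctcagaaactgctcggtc
TLR6: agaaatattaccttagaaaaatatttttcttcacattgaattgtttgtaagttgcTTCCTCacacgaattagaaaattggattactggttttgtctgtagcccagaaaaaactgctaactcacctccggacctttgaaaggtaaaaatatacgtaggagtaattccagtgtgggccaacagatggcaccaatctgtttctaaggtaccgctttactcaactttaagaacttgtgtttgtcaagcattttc
TLR9: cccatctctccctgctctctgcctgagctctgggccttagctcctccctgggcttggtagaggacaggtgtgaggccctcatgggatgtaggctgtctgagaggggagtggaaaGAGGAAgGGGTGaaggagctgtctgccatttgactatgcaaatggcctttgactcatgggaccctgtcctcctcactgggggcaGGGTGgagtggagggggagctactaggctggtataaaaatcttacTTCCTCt

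The TLR4 window held 4 matches to GAGGAA and 1 to GGGTG. Among 27305 promoter windows of the same length, 23.4% held at least 1 GAGGAA and 0.0513% held 4 or more, a limit set after the TLR4 count was seen. The TLR6 window held 1 GAGGAA and 0 GGGTG, and the TLR9 window held 2 of each, where 53.7% of all windows held at least 1 GGGTG. The other windows held 1 GGGTG and 0 GAGGAA for TLR2, 0 and 1 for CD14, and 3 and 1 for MYD88. These are matches of letters, and binding at them was not measured.

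The immediate neighbours of LY96, TMEM70 and JPH1, changed by 0.09 and -0.04 in KMS-11/Cfz and by 0.03 and 0.10 in KMS-34/Cfz, and neither was called. Of 5 measured genes on each side, 0 were called in KMS-11/Cfz (3.57% of all genes were called there, and 10.1% in KMS-34/Cfz). In KMS-34/Cfz GDAP1, a mitochondrial membrane protein, rose by 0.74 (SE 0.09, adjusted p = 0.00019), and RDH10, a retinol dehydrogenase, changed by -0.45 (SE 0.06, adjusted p = 0.00062).

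TLR10, TLR1 and TLR6 lie side by side on chromosome 4, at chr4:38772238-38782990, chr4:38787569-38805644 and chr4:38822897-38868390. Of these, TLR6 rose in KMS-11/Cfz, TLR1 rose in KMS-34/Cfz, and TLR10 was called in neither. Of the 10 measured genes that flank the cluster, 0 were called in either resistant derivative. The nearest on each side were KLF3, at 0.18 and 0.23 (adjusted p = 0.40 and 0.12), and FAM114A1, at 0.14 and 0.20 (adjusted p = 0.41 and 0.089), with the KMS-11 line given first.

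**Figure D4:**
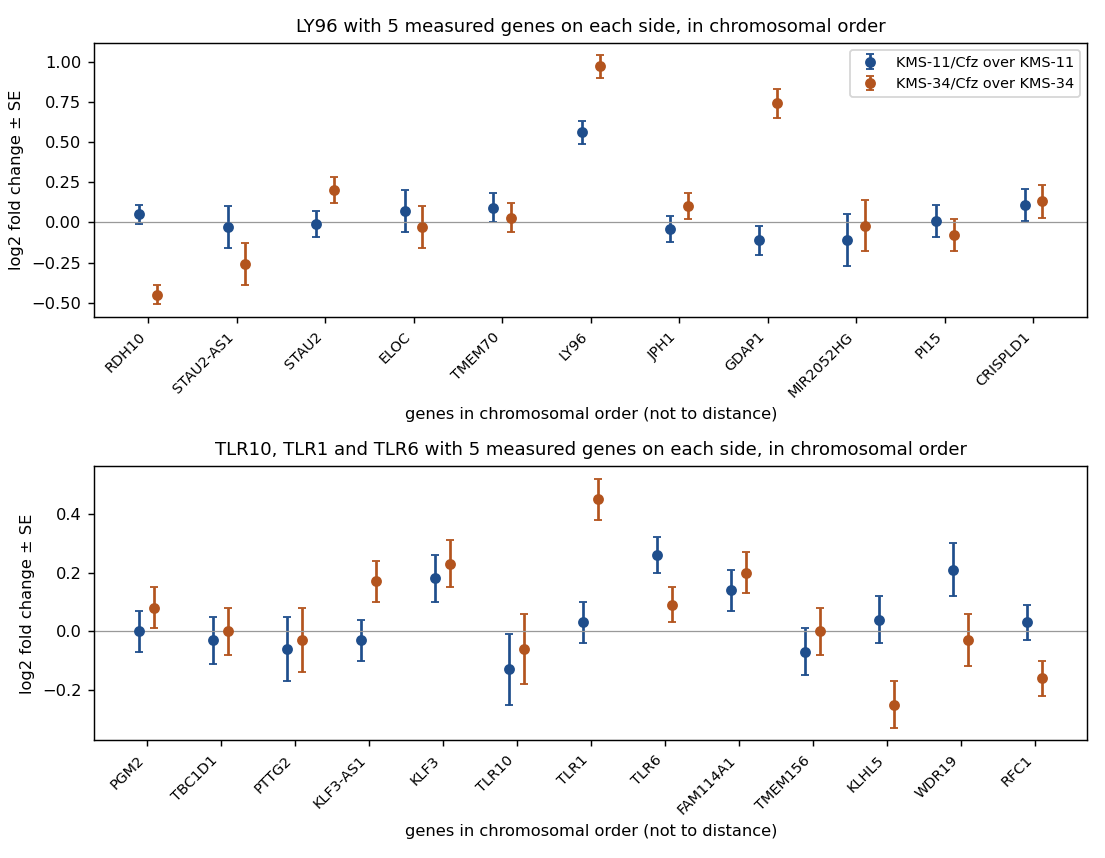
Log2 fold change ± SE of LY96 (upper panel) and of TLR10, TLR1 and TLR6 (lower panel) with the 5 measured genes on each side, in chromosomal order and not to distance. LY96 lies above its neighbours in both lines, at 0.56 and 0.97, but it was chosen for being higher there, so nothing is read from this. Among the neighbours GDAP1 rises in KMS-34/Cfz by 0.74.

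The rest of the pathway was taken as a list of 74 genes, from other receptors to kinases, transcription factors, inhibitors and induced genes, of which 69 were measured and 5 (TICAM2, IRAK4, RIPK1, CCL3 and BIRC3) were not analysed here. In KMS-11/Cfz 1 rose and 0 fell, with a median of 0.05. In KMS-34/Cfz 8 rose and 4 fell, with a median of -0.01, and the count was 19 without the array that stood apart and 7 without KMS-34/Cfz replicate 2. The shares stand beside the 3.57% and 10.1% of all genes given above. None of the 7 other receptors and partners, 4 chaperones or 3 adaptors was called in either derivative. Lists this short could hold no call at those shares, so nothing is read from this.

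Among 14 kinases and ubiquitin ligases, PELI1, a ligase that modifies IRAK proteins, rose in both derivatives. It stood at -0.51, -0.36 and -0.59 in KMS-11 and -0.15, -0.17 and -0.09 in KMS-11/Cfz, a change of 0.35 (SE 0.07, adjusted p = 0.019). In KMS-34 it stood at -0.19, -0.28 and -0.39 and in KMS-34/Cfz at -0.05, 0.09 and 0.04, a change of 0.31 (SE 0.07, adjusted p = 0.017). Resistant arrays lay above parental arrays in both lines. Taken singly, 13.1% of all genes did so in KMS-11 and 10.2% in KMS-34. Both calls ended with the probe set of largest variance (adjusted p = 0.22 and 0.23), and with single arrays left out they ended without KMS-11 replicates 1 or 3 or any KMS-11/Cfz array in the first case (adjusted p = 0.06 to 0.1), and without KMS-34 replicate 3 or KMS-34/Cfz replicate 2 in the second (adjusted p = 0.072 for each). TAB3, a partner of the kinase TAK1, rose in KMS-34/Cfz (0.33, adjusted p = 0.017), and TRAF3, a ligase that restrains non-canonical NF-κB, fell there (-0.30, adjusted p = 0.029). The TAB3 call ended without KMS-34 replicates 1 or 3 or KMS-34/Cfz replicates 2 or 3 (adjusted p = 0.051 to 0.074). The TRAF3 call ended without the array that stood apart (-0.24, adjusted p = 0.067), KMS-34 replicates 2 or 3 (adjusted p = 0.094 and 0.12) or KMS-34/Cfz replicate 2 (adjusted p = 0.053).

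Of the 11 transcription factors, REL, a subunit of NF-κB, rose in KMS-34/Cfz by 0.43 (SE 0.06, adjusted p = 0.0008). It stood at -1.31, -1.23 and -1.31 in KMS-34 and -0.92, -0.89 and -0.73 in KMS-34/Cfz. The other NF-κB subunits that were called there fell, NFKB1 by 0.38 on the log2 scale (adjusted p = 0.0041) and RELB by 0.29 on the log2 scale (adjusted p = 0.027). The RELB call ended without the array that stood apart (-0.27, adjusted p = 0.053), KMS-34 replicates 2 or 3 (adjusted p = 0.098 and 0.11) or KMS-34/Cfz replicate 2 (adjusted p = 0.066), and after quantile normalization (adjusted p = 0.072). RELB, TRAF3, TAB3, ICAM1, PELI1 and HMGB1 lost their calls in KMS-34/Cfz when that line was fitted alone (adjusted p = 0.068 to 0.23).

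The 8 inhibitors held 1 rise and 1 fall in KMS-34/Cfz, where 5.4% of all genes rose and 4.69% fell. TNFAIP3, or A20, which removes ubiquitin chains from the pathway and is itself induced by NF-κB, stood at -2.81, -2.72 and -2.80 in KMS-34 and -2.31, -2.16 and -2.15 in KMS-34/Cfz. That was a rise of 0.57 (SE 0.06, adjusted p = 5.9e-05), while the 6 arrays of the KMS-11 cultures lay between 0.60 and 0.74. SIGIRR, a receptor-like inhibitor, fell by 0.52 on the log2 scale (SE 0.09, adjusted p = 0.0017).

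Among 15 genes induced by Toll-like receptors, 3 rose in KMS-34/Cfz and 0 fell, where 5.4% of all genes rose and 4.69% fell. CCL2, the monocyte-attracting chemokine, stood at 1.09, 1.00 and 0.87 in KMS-34 and at 3.48, 3.87 and 3.74 in KMS-34/Cfz, and between -0.38 and 0.07 in all KMS-11 and KMS-11/Cfz arrays. Its change in KMS-34/Cfz was 2.71 (SE 0.12, 6.55-fold, adjusted p = 4.3e-08). CCL5, another chemokine, rose by 0.56 (adjusted p = 0.00024) and ICAM1, an adhesion molecule, by 0.42 (adjusted p = 0.0079). The remaining 12 were not called, and the median of the 15 genes was -0.06. Of 7 endogenous ligands HMGB1, a nuclear protein that can be released, rose in KMS-34/Cfz (0.22, adjusted p = 0.041), a call that ended when any array other than KMS-34 replicate 2 was left out (adjusted p = 0.054 to 0.15).

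**Figure D5:**
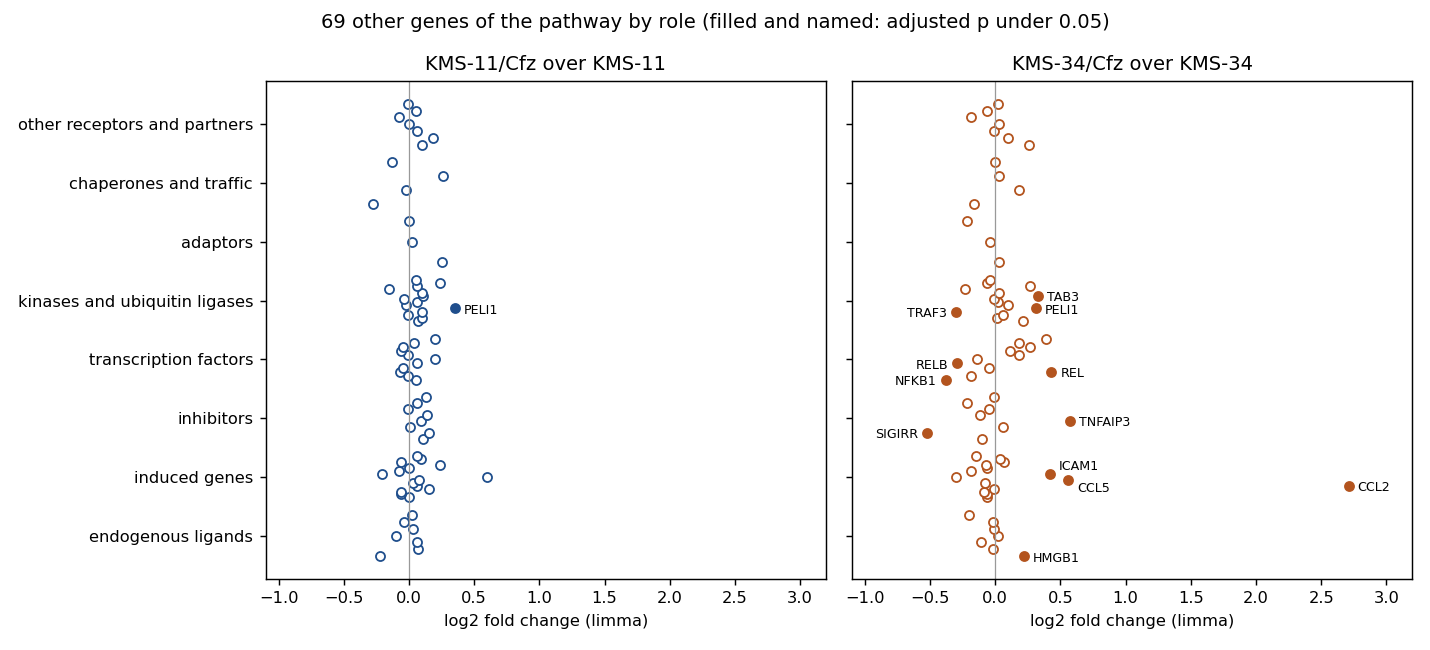
Log2 fold changes of the 69 other genes of the pathway by role, in each derivative over its parental line, with filled and named points for genes past the threshold. PELI1 is the filled point in KMS-11/Cfz, and CCL2 stands alone at 2.71 in KMS-34/Cfz.

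LY96, TLR4 and CD14 are also expressed by monocytes and macrophages, so the markers of those cells were read beside them. Of 9 measured markers of 10, 0 rose and 0 fell in either derivative, with medians of 0.04 and -0.02, and their mean per array lay between -0.11 and 0.10 in all groups. No marker of B cells or stromal cells was called in either derivative, and among 6 of T and NK cells 1 fell in KMS-11/Cfz. Of 9 plasma cell markers, KMS-11/Cfz had 0 rises and 2 falls, and KMS-34/Cfz had 1 rise and 3 falls. Beside all these marker lists stand 3.57% and 10.1% of all genes called in the 2 derivatives. SLAMF7, a surface receptor of plasma cells, fell in KMS-11/Cfz (-0.97, adjusted p = 2.2e-05) and in KMS-34/Cfz (-1.0, adjusted p = 7e-06). MZB1 fell in KMS-11/Cfz alone (-0.50, adjusted p = 0.00032). PRDM1 (-0.33, adjusted p = 0.0099) and IRF4 (-0.32, adjusted p = 0.014) fell in KMS-34/Cfz alone, where JCHAIN rose (0.71, adjusted p = 0.0037). SDC1, TNFRSF17, XBP1 and CD38 were called in neither derivative. The part of these markers in the changes of the receptors was not tested. Centred values cannot show whether a marker is absent.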

How the data were processed

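Total RNA of 12 samples, 3 from each of the 4 groups, was hybridised to Affymetrix GeneChip Human Genome U133 Plus arrays, and groups were taken from the sample labels. The deposited table holds log2 values of 54613 probe sets, from -7.75 to 8.64, which the authors made with RMA according to the submitters' processing notes (version not given in the sources used here). Each probe set is centred, since 99.99% have 3 to 9 values below 0, and the reference used for centring stays unknown, because only 6.5% have a 12-array median within 1e-4 of 0. Array medians lay between -0.017 and 0.013. A platform annotation gave 1 gene for 41091 probe sets, several for 1801 and none for 11721, and 0 data columns were left without a sample.

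Probe sets of a gene were averaged into 19775 genes, 10523 of them with more than 1 probe set. All arrays entered 1 limma fit (limma 3.58.1, R 4.3.3) with a mean per group and no filter. Two-sided p-values had Benjamini-Hochberg adjustment across all genes, at a threshold of 0.05. For the separate probe sets of TLR4 and TLR6 the adjustment was over all probe sets. A gene with 1 probe set carries its gene-level p-value, also where that probe set is named. Adjusted over all probe sets, CD14 in KMS-34/Cfz (adjusted p = 0.057) and the TLR1 difference between the lines' changes (adjusted p = 0.051) were not called. The code was tested on simulated data. Named are the 10 genes, the pathway genes called on resistance, the 5 genes most like LY96 and TLR4, 5 neighbours on each side, and markers. Members, lists and motifs were chosen with earlier results of these data known. LY96 was left out of the counts of called genes, on resistance and between the parental lines. Alternatives were a fit of each line by itself, a block for the replicate number, aligned medians, quantile normalization, array weights (limma's gene-by-gene method), robust variance, the probe set of largest variance, no s_at or x_at probe sets, genes above the median SD alone, adjusted p under 0.01, and the omission of each array. No filter on dim probe sets and no other background correction were run, because centred values hold no level and scanner files were not used here. Values were drawn and tabulated with Python 3.11.15, pandas 2.3.3 and matplotlib 3.10.9. The number of arrays limits the precision. Loci and promoters come from RefSeq's GRCh38.p14.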

Additional observations from a re-analysis of the deposited data

Results flagged for a closer look

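The change on resistance differed between the lines, by the interaction term of the same limma fit, for TLR1 (KMS-34 change minus KMS-11 change 0.41, SE 0.09, adjusted p = 0.02) and TLR4 (0.43, SE 0.11, adjusted p = 0.033). Each of these calls ended when some single arrays were left out, as given above.

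Among the other pathway genes called in a derivative, the difference between the lines was 2.66 for CCL2 (SE 0.18, adjusted p = 1.9e-06), 0.48 for CCL5 (SE 0.10, adjusted p = 0.012), 0.63 for ICAM1 (SE 0.13, adjusted p = 0.009) and 0.43 for HMGB1 (SE 0.09, adjusted p = 0.01). For regulators of NF-κB it was 0.51 for REL (SE 0.09, adjusted p = 0.0047), 0.48 for TNFAIP3 (SE 0.09, adjusted p = 0.0047), -0.43 for NFKB1 (SE 0.10, adjusted p = 0.022) and -0.67 for SIGIRR (SE 0.12, adjusted p = 0.0051). The NFKB1 difference was not called without KMS-11 replicate 1, KMS-11/Cfz replicates 1 or 3, KMS-34 replicate 3 or KMS-34/Cfz replicate 2 (adjusted p = 0.052 to 0.067). In HMGB1 and ICAM1 the 3 KMS-11/Cfz arrays lay below the KMS-11 arrays while the 3 KMS-34/Cfz arrays lay above the KMS-34 arrays. Taken singly, 13.7% of all genes did the first and 10.2% the second.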

How the results depend on the processing

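Of 779 recomputed values for 37 results of the 10 genes, 725 stayed on the same side of the threshold, 42 lost a call and 12 gained one, and 0 called values changed direction. These tallies include the parental difference of LY96, which is not read as a test here. For the 9 genes without LY96, the count called in KMS-11/Cfz (1 with the reported settings) was 0 with aligned medians, with the probe set of largest variance, without s_at or x_at probe sets and at adjusted p under 0.01, 2 with array weights, and 0 to 1 with single arrays left out. It was also 0 among genes above the median SD, where TLR6 was not kept and so had no test. The count in KMS-34/Cfz (3) was 2 to 3 with single arrays left out. The count for the difference between lines (2) was 1 with the probe set of largest variance and without s_at or x_at probe sets, 0 at adjusted p under 0.01, and 0 to 3 with single arrays left out. Between the parental lines TLR1, TLR9 and MYD88 kept their calls at adjusted p under 0.01, and TLR4 did not (adjusted p = 0.013).

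For the other pathway genes, the count in KMS-11/Cfz (1) was 9 with array weights and with the line fitted alone, 4 with the probe set of largest variance, 2 without s_at or x_at probe sets and after quantile normalization, 3 among genes above the median SD, 0 at adjusted p under 0.01, and 0 to 4 with single arrays left out. In KMS-34/Cfz (12) it was 20 with array weights, 7 with the line alone, 7 at adjusted p under 0.01, and 7 to 19 with single arrays left out. The difference between lines (8) gave 16 with array weights, 5 at adjusted p under 0.01, and 7 to 11 with single arrays left out. The parental count (42) was 37 to 47 with single arrays left out. The cause of these moves was not tested.

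With the replicate number as a block, 0 of the 9 genes were called in KMS-11/Cfz, since TLR6 reached adjusted p = 0.061, while TLR9 was called in KMS-34/Cfz (0.46, adjusted p = 0.016) and CD14 between the parental lines (0.22, adjusted p = 0.021). Arrays of the same number correlated at r = -0.35 to 0.561 after removal of group means, with r over 0.1 in 6 of 18 pairs. Arrays of different numbers were not compared, so this cannot decide whether the numbers pair the samples.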
